A study of Mus musculus with 6 samples.

Results

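Molecular chaperones of the heat shock and DNAJ families were followed in hearts of mice that carry 1 targeted allele of Grk2. The set held every gene whose symbol starts with Dnaja, Dnajb, Dnajc, Hspa, Hspb, Hsp90, Hspd, Hspe or Hsph, together with Herpud1, Ddit3, Xbp1 and Atf4 of the endoplasmic reticulum stress response. This name rule used no measured value, but it was set with earlier results of these data known. It found 76 genes among the 18193 named genes of an Affymetrix expression array, read by 185 probe sets. For 26 of the genes 1 probe set was present, and for the other 50 the brightest over the 6 arrays stood for the gene. The probe sets of Dnajc19 carried a second symbol and were left out, and Hsp90ab1 was not analysed here.

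The GRK2+/- group held 3 hearts of B6.129-Adrbk1tm1Mca/J heterozygotes that had been backcrossed to C57BL/6J, and the WT group held 3 hearts of C57BL/6J littermates, all at 9 months of age. The targeted allele is carried in the germline, so every cell type of the heart has it, and sex is not given in the sources used here. Each heart was stopped with potassium chloride, its upper portion was taken, and 1 array was run per heart. No probe set was named Grk2, so the genotype was not checked by the targeted gene itself.

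GRK2, the product of Adrbk1, phosphorylates activated G protein-coupled receptors, the beta-adrenergic receptors of heart muscle among them, and so ends their signalling. HSP70 proteins bind unfolded stretches of other proteins in cycles of ATP hydrolysis, J proteins of the DNAJ family deliver those clients and trigger the hydrolysis, and HSP110 and other exchange factors release them. HSP90 matures kinases and receptors, and small heat shock proteins hold unfolding proteins, in heart muscle mainly those of the contractile apparatus, until they are refolded. The endoplasmic reticulum and the mitochondria have HSP70 and HSP90 systems of their own, with dedicated J proteins. Cytosolic chaperone genes are induced through heat shock factor 1, and those of the endoplasmic reticulum through the unfolded protein response.

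No chaperone gene differed between GRK2+/- and WT hearts past the threshold, an adjusted p of 0.05 in limma with Benjamini-Hochberg adjustment over all 18193 genes, and neither did any other gene of the array (0%). The gene that came nearest was Herpud1, with a mean 1.50-fold lower in GRK2+/- hearts (adjusted p = 0.118). At an unadjusted p under 0.05, 11 of the 76 genes (14.5%) were counted, beside 14.0% of all genes, a share near that of the whole array. Of these, 3 were higher in GRK2+/- hearts (all genes: 6.30%), namely Hspa12a, Dnajb14 and Dnajc14. The 8 lower ones (all genes: 7.70%) were Herpud1, Dnaja4, Hspb1, Dnajb4, Dnajb8, Hspb6, Dnajc6 and Dnajc11. With each array centred on its median the split was 5 higher and 6 lower, and the 3 higher became 6 without WT heart 1, 1 without GRK2+/- heart 2 or WT heart 2, and 0 without WT heart 3.

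The groups did not overlap for 12 members (15.8%). In 2 of them, Dnajc5 and Dnajb14, the 3 GRK2+/- values lay above the 3 WT values (all genes: 7.44%), and in 10 they lay below (all genes: 11.6%), namely Herpud1, Hspb1, Hspb6, Hspb7, Dnaja4, Dnajb4, Dnajb6, Dnajc11, Dnajc6 and Hspa4l. With 3 hearts a group an exact two-sided permutation test cannot give a p below 0.1. The differences, GRK2+/- minus WT on the log2 scale, ranged from -0.58 to 0.27 over the set, with a median of -0.021 beside -0.019 over all genes. Of the 76 genes, 33 lay above 0 and 43 below, which is 43.4% above 0 beside 43.5% of all genes. Centring each array turned the sign of the set's median, to 0.0074, and leaving out WT heart 1 turned it to 0.0056.

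The flat total was made of compartments with different balances. Small heat shock proteins lay below 0 in 6 of 7 genes, and chaperones and J proteins of the endoplasmic reticulum lay above 0 in 10 of 13. Cytosolic and nuclear HSP70, HSP110 and HSP90 genes lay below 0 in 9 of 13 and cytosolic and nuclear J proteins in 12 of 19. The shares above 0 were 30.8% and 36.8% in these 2 compartments, nearer to the 43.5% of all genes. They were 14.3% for the small heat shock proteins and 76.9% for the reticulum genes. Mitochondrial members, with 3 above and 4 below, were near even. With each array centred on its median, which raises every difference by the same amount, 5 of the 7 small heat shock proteins lay below 0, 12 of the 13 reticulum genes above it, and the cytosolic J proteins were near even with 10 of 19 below. Quantile normalisation left 6 of 7 below, 10 of 13 above and 14 of 19 below. The difference between compartments was not tested, because the members were grouped with earlier results of these hearts known.

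**Figure D1:**
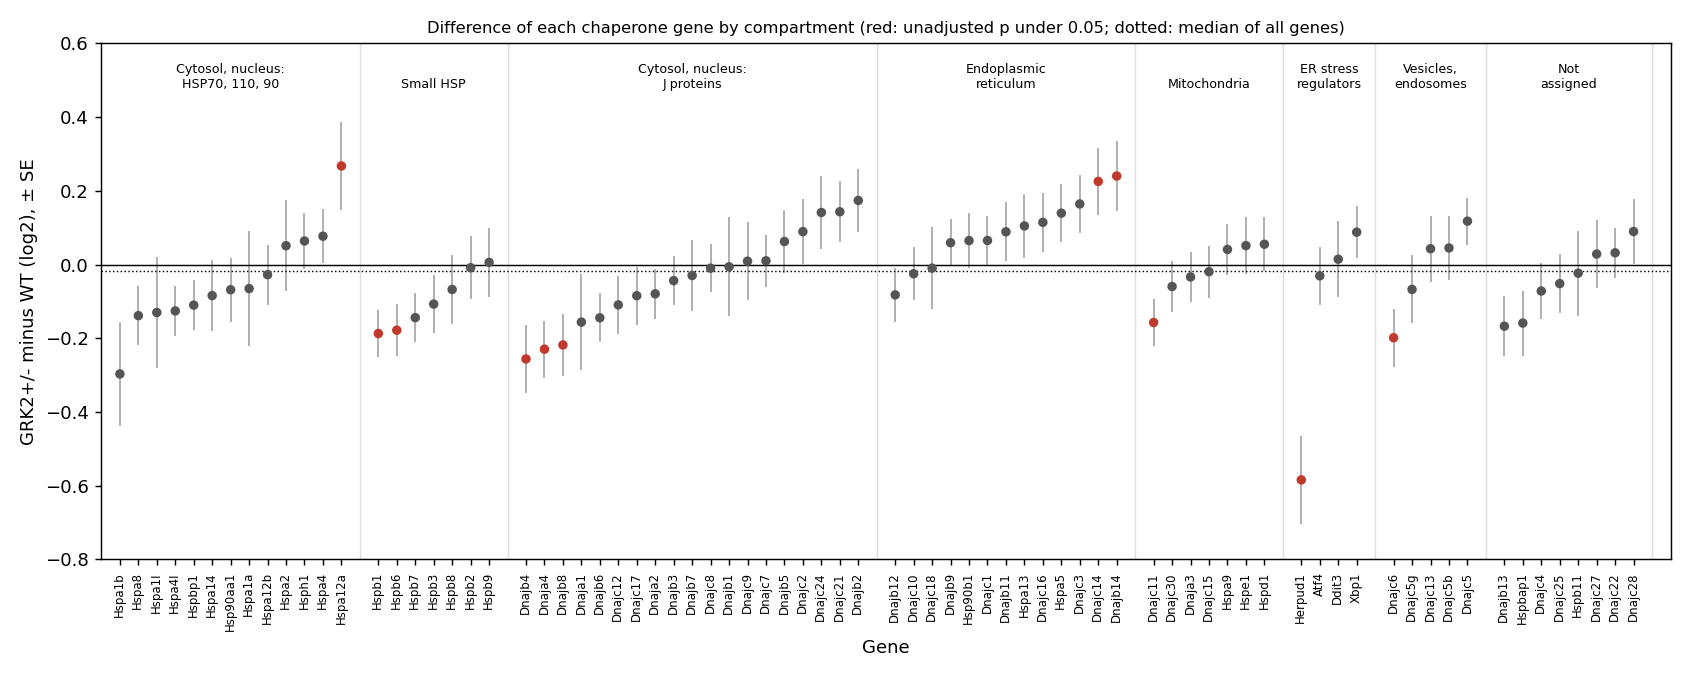
The 76 genes are placed along the horizontal axis, grouped by compartment. The vertical axis is the difference in log2 value, GRK2+/- minus WT, with bars of 1 standard error. Red points are the 11 genes at an unadjusted p under 0.05, and the dotted line is the median of all genes, -0.019. Herpud1 stands apart at -0.58, the small heat shock proteins lie mostly below 0 and the endoplasmic reticulum genes mostly above it.

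Array medians lay between 6.25 and 6.31. Ventricular muscle markers (8 of 8 measured, none at an unadjusted p under 0.05) had summed log2 levels of 116.6 to 117.1 in GRK2+/- and 117.0 to 117.2 in WT hearts. Of 6 atrial markers, 4 lay above 0, but the natriuretic peptide Nppa had a mean of 9.97 in GRK2+/- and 11.17 in WT hearts without overlap, and Nppa and Bmp10 (-0.19) were lower at an unadjusted p under 0.05. The summed atrial levels, 40.28 to 41.35 in GRK2+/- and 41.52 to 41.76 in WT hearts, did not overlap and were lower in GRK2+/- hearts. That sum was dominated by Nppa (-1.20), as the other atrial markers ranged from -0.19 (Bmp10) to 0.14 (Myl4). Myl7, the atrial light chain, had means of 5.61 and 5.50, below the 25th percentile of the gene table, 5.76. Summed levels also did not overlap, but were higher in GRK2+/- hearts, for endothelial markers (7 genes, 65.27 to 66.05 against 63.77 to 65.22), for smooth muscle and pericyte markers (7 genes, 66.86 to 68.4 against 65.63 to 66.47) or for neutrophil markers (4 of 6 measured, 29.04 to 31.88 against 26.21 to 27.71). Of the 7 endothelial markers 6 lay above 0, with Kdr highest (0.55), while Pecam1 was lower without overlap (-0.12). Of the 7 smooth muscle and pericyte markers 6 lay above 0 and Cnn1 below (-0.13). Of the neutrophil markers, S100a8 (1.97) and S100a9 (2.25) had higher means, while Mpo (-0.39, without overlap) and Elane (-0.13) had lower means. Fibroblast markers overlapped (70.93 to 71.86 against 70.14 to 71.21), as did leukocyte markers (53.83 to 54.17 against 53.08 to 54.09). The difference between the 3' and 5' probe sets of beta-actin, a measure of RNA integrity, was 0.901, 1.06 and 0.974 in GRK2+/- hearts and 0.800, 0.795 and 0.735 in WT hearts. The same measure differed by 0.0245 for Gapdh and 0.0205 for pyruvate carboxylase. The part of cell mixture and RNA integrity in the differences below was not tested.

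Of the 7 small heat shock proteins, Hspb1, Hspb6 and Hspb7 had lower means in GRK2+/- hearts without overlap between the groups. These 3 are 42.9% of the 7, beside 11.6% of all genes that were lower without overlap. Hspb1 encodes HSP27, which protects actin filaments, and read 13.40, 13.38 and 13.43 in GRK2+/- hearts 1 to 3 and 13.55, 13.61 and 13.60 in WT hearts 1 to 3. The GRK2+/- hearts lay close together and all below the WT hearts, with a difference of -0.19 ± 0.064 (SE, n = 3 hearts per group, adjusted p = 0.259), a 1.14-fold lower mean. Both of its probe sets were lower without overlap. Hspb6, or HSP20, a target of protein kinase A in heart muscle, read 13.64, 13.58 and 13.73 against 13.81, 13.87 and 13.81. Every WT heart was higher than every GRK2+/- heart, and the difference was -0.18 ± 0.070 (adjusted p = 0.31). Hspb7, the cardiovascular small heat shock protein, read 13.94, 13.85 and 13.84 against 14.05, 14.00 and 14.01, a difference of -0.14 ± 0.066 (adjusted p = 0.368). All 3 probe sets of Hspb7 were lower without overlap, with differences of -0.36 and -0.66 for the other 2. In bulk tissue, fewer cells of a type and less RNA per cell cannot be told apart.

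The other small heat shock proteins overlapped between the groups. Hspb3 read 9.18, 9.30 and 9.25 in GRK2+/- hearts and 9.49, 9.31 and 9.27 in WT hearts, a difference of -0.11 ± 0.079, with WT heart 1 the highest. Hspb8, which works with BAG3 in the removal of damaged contractile proteins, read 12.36, 12.42 and 12.34 against 12.66, 12.34 and 12.32. WT heart 1 alone lay above the GRK2+/- range, and the difference of -0.068 ± 0.094 (adjusted p = 0.776) became 0.041 without that heart. The 2 further probe sets of Hspb8 read -0.27 and 0.013. Hspb2 (-0.0086) and the testis-enriched Hspb9 (0.0059) lay close to 0. Over the 7 genes the median difference was -0.11, and -0.040 without WT heart 1. Each heart's median deviation from the WT mean was -0.0815, -0.0970 and -0.101 in GRK2+/- hearts and 0.0278, -0.0185 and -0.00931 in WT hearts. The groups thus did not overlap for the median of these 7 genes either. Cryab (-0.028) and Cryaa (-0.077), small heat shock proteins whose symbols the name rule does not cover, overlapped between the groups.

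**Figure D2:**
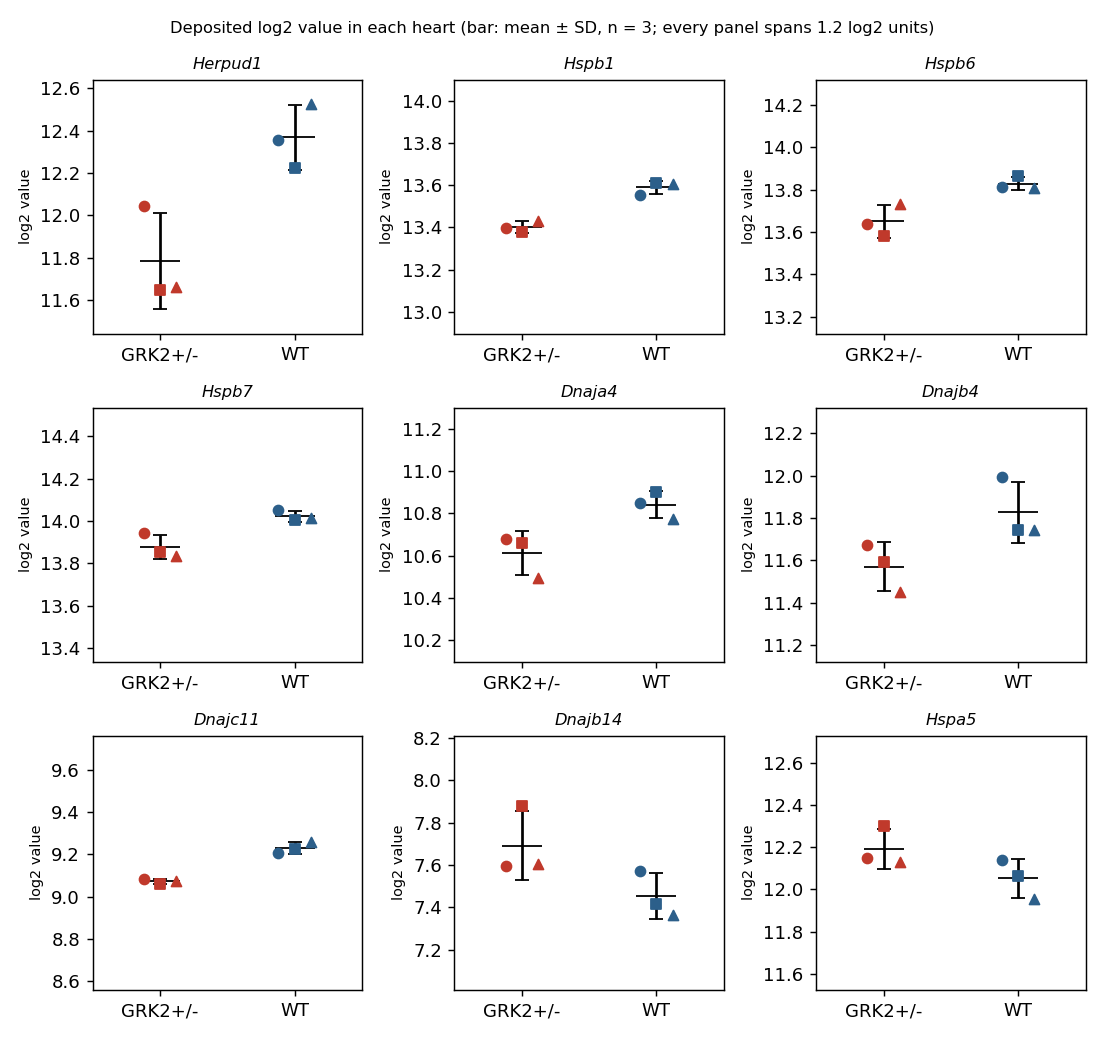
Deposited log2 value of 9 named genes in each heart (points), with the mean and SD of the 3 hearts per group; each panel spans 1.2 log2 units. The GRK2+/- points lie below every WT point for Herpud1, Hspb1, Hspb6, Hspb7, Dnaja4, Dnajb4 and Dnajc11, above them for Dnajb14, and overlap them for Hspa5.

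**Figure D3:**
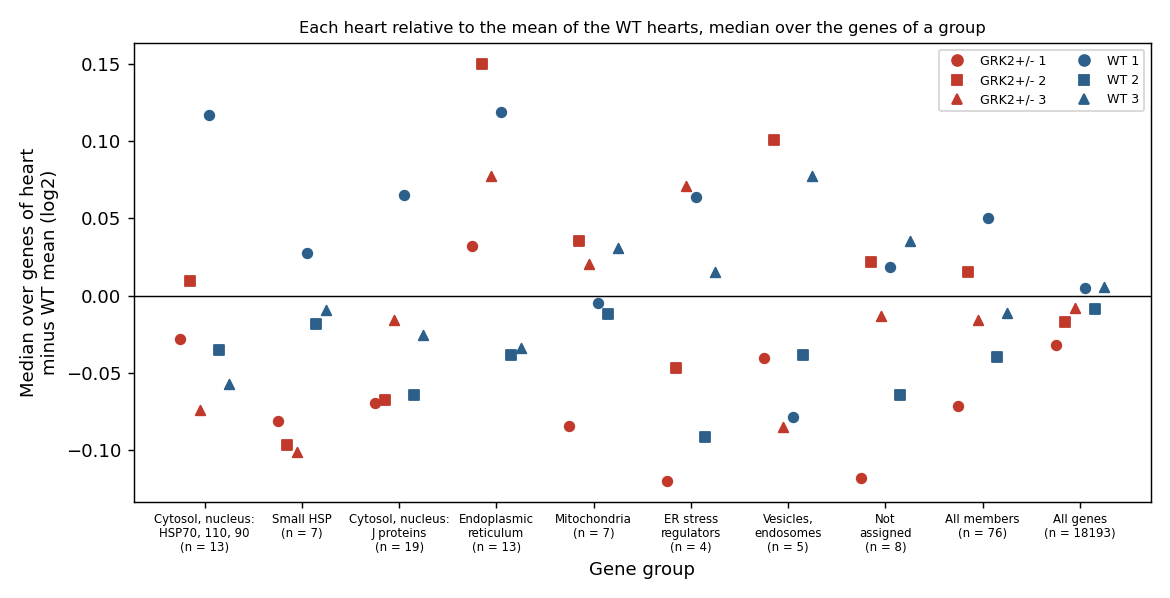
For each compartment, each heart's median over the genes of its deviation from the WT mean, in log2 units. GRK2+/- hearts (-0.0815 to -0.101) lie below WT hearts (-0.0185 to 0.0278) for the small heat shock proteins, and WT heart 1 lies among the GRK2+/- hearts for the endoplasmic reticulum genes.

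None of the cytosolic and nuclear HSP70, HSP110 and HSP90 genes passed the threshold, and 9 of 13 had lower means in GRK2+/- hearts. Hspa8, the constitutive HSC70, read 13.49, 13.32 and 13.32 in GRK2+/- hearts and 13.62, 13.47 and 13.46 in WT hearts. Heart 1 of the GRK2+/- group lay within the WT range and the others below it, with a difference of -0.14 ± 0.079 (adjusted p = 0.458). Another probe set of Hspa8 with nearly the same brightness (means 13.405 and 13.399) read 0.0058, and the dimmer ones read -0.10 and -0.045. The stress-inducible HSP70 genes Hspa1a and Hspa1b are near-identical copies, so their probe sets may read each other's transcripts and their values are uncertain. Hspa1b read 7.26, 7.13 and 7.43 against 7.92, 7.34 and 7.45, a difference of -0.30 ± 0.14 (adjusted p = 0.377), while its other 2 probe sets gave -0.10 and 0.19. Hspa1a read 6.08, 5.99 and 6.02 against 6.46, 5.70 and 6.12. The WT hearts spanned the whole GRK2+/- range, and the difference of -0.065 ± 0.16 became 0.12 without WT heart 1.

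Hspa4l, an HSP110-type exchange factor, was the only gene of the compartment without overlap, at 8.76, 8.90 and 8.82 in GRK2+/- hearts and 8.92, 8.98 and 8.96 in WT hearts (-0.13 ± 0.069, adjusted p = 0.438), and 2 of its 5 probe sets shared that direction. The related Hsph1 read 9.61, 9.70 and 9.70 against 9.66, 9.68 and 9.48, a difference of 0.064 ± 0.077 (adjusted p = 0.736). Its sign turned with the choice of probe set. Hsp90aa1, the inducible HSP90, read 11.05, 11.12 and 11.10 against 11.28, 11.22 and 10.97 (-0.068 ± 0.087, adjusted p = 0.753), with every GRK2+/- heart inside the WT range. Of its 5 probe sets 4 were lower, 1 of them at -0.27 without overlap. Hspa12a, a distant HSP70 relative, read 8.31, 8.31 and 8.19 against 8.22, 8.08 and 7.71, the highest difference of the whole set (0.27 ± 0.12, adjusted p = 0.354). WT heart 3 was the lowest and WT heart 1 lay within the GRK2+/- range, and all 4 probe sets were higher. The remaining genes, Hspa4 (0.077, and 0.24 by another probe set), Hspa2 (0.051), Hspa12b (-0.028), Hspa14 (-0.084), Hspa1l (-0.13) and the exchange factor Hspbp1 (-0.11), overlapped between groups. The median difference of the compartment was -0.068, -0.010 without WT heart 1 and -0.11 without WT heart 2.

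WT heart 1 stood high for the heat-inducible genes. Of 10 genes known to respond to heat (Hspa1a, Hspa1b, Hspa8, Hsph1, Hsp90aa1, Dnaja1, Dnajb1, Dnajb4, Hspb1 and Hspb8, a list made after the values were seen), 8 had their highest value in WT heart 1. The exceptions were Hsph1, highest in GRK2+/- heart 2, and Hspb1, highest in WT heart 2. WT heart 1 lay above the WT mean by 0.37 for Hspa1a, 0.35 for Hspa1b, 0.33 for Dnajb1, 0.28 for Dnaja1 and 0.22 for Hspb8. Over all 76 members, 23 (30.3%) were highest in GRK2+/- heart 2, beside 18.5% of all genes, and 22 (28.9%) in WT heart 1, beside 15.9%. Only 2 members (2.63%) were lowest in WT heart 1, beside 10.6% of all genes. The median difference of the 10 genes was -0.10 with all hearts and -0.012 without WT heart 1, when 4 were higher and 6 lower. Hspb1 (-0.21) and Dnajb4 (-0.17) were the lowest without that heart, and only Hspa1a (0.12), Dnajb1 (0.16) and Hspb8 (0.041) turned sign.

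**Figure D4:**
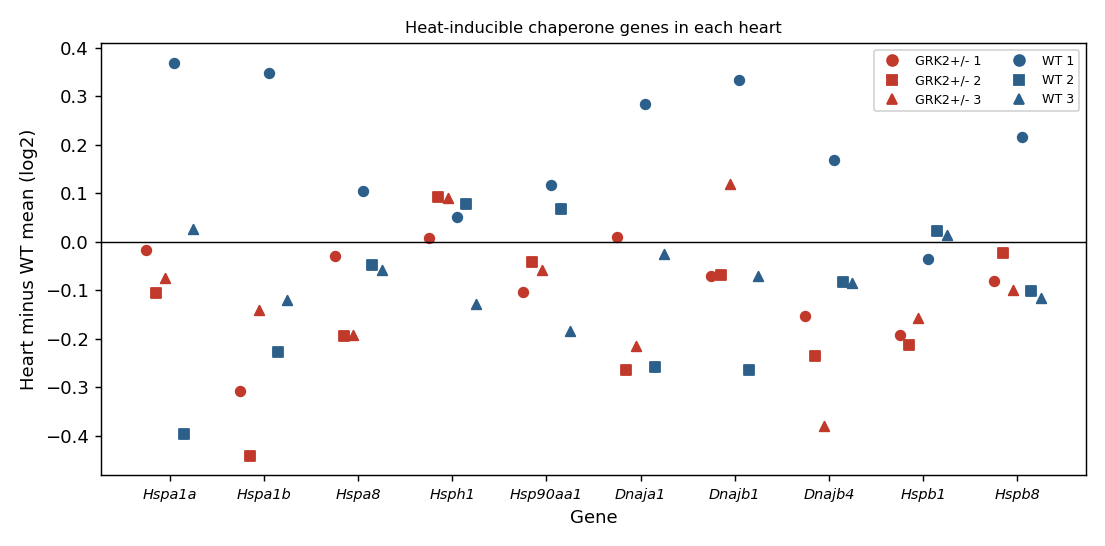
Deviation from the WT mean, in log2 units, of the 10 heat-inducible genes in each heart, with 1 point per gene. The points of WT heart 1 reach 0.37 (Hspa1a) and lie highest of the 6 hearts for 8 of the 10 genes.

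Cytosolic and nuclear J proteins showed 3 of 19 genes lower at an unadjusted p under 0.05 and none higher, 15.8% beside 14.0% of all genes in both directions. Dnaja4, a type I J protein, read 10.68, 10.66 and 10.49 in GRK2+/- hearts and 10.85, 10.90 and 10.77 in WT hearts. All GRK2+/- hearts lay below all WT hearts (-0.23 ± 0.077, 1.17-fold lower, adjusted p = 0.254), and all 3 probe sets shared the direction. Dnajb4, a heat-inducible partner of HSP70 that is abundant in muscle, read 11.67, 11.59 and 11.45 against 11.99, 11.74 and 11.74. The groups did not overlap (-0.26 ± 0.092, 1.19-fold lower, adjusted p = 0.276), and the difference was -0.17 without WT heart 1. Dnajb8, a suppressor of protein aggregation, read 7.38, 7.32 and 7.50 against 7.48, 7.66 and 7.72 with overlap (-0.22 ± 0.084, adjusted p = 0.306). Dnajb6, of the same aggregation-suppressing class and a gene of inherited muscle disease, read 9.34, 9.43 and 9.35 against 9.53, 9.54 and 9.49 without overlap (-0.14 ± 0.066, adjusted p = 0.365), but 2 of its 4 probe sets pointed the other way.

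The classical partners of cytosolic HSP70 overlapped. Dnajb1, or HSP40, read 9.48, 9.48 and 9.66 in GRK2+/- hearts and 9.88, 9.28 and 9.47 in WT hearts, a difference of -0.0061 ± 0.13 (adjusted p = 0.986) whose sign turned with centring (0.023) and without WT heart 1 (0.16). Dnaja1 read 10.88, 10.60 and 10.65 against 11.15, 10.61 and 10.84 (-0.16 ± 0.13, adjusted p = 0.611), and the difference was -0.015 without WT heart 1. The J protein with the highest difference here was Dnajb2, a neuronal and muscle gene of protein quality control (0.17 ± 0.086, adjusted p = 0.395). Dnajc21 (0.14, though -0.23 without overlap by another probe set), Dnajc24 (0.14), Dnajc2 (0.089), Dnajb5 (0.062), Dnajc7 (0.010) and Dnajc9 (0.0090) also lay above 0. Dnajc12 (-0.11), Dnaja2 (-0.079), Dnajc17 (-0.085), Dnajb3 (-0.044), Dnajb7 (-0.030) and Dnajc8 (-0.0099) lay below. The median of the 19 genes was -0.030, -0.00087 with each array centred and -0.088 without WT heart 2.

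Chaperones and J proteins of the endoplasmic reticulum lay above 0 in 10 of 13 genes, with a median difference of 0.089. Dnajb14, a membrane-bound J protein, read 7.59, 7.88 and 7.60 in GRK2+/- hearts and 7.57, 7.42 and 7.37 in WT hearts. The groups did not overlap (0.24 ± 0.10, 1.18-fold higher, adjusted p = 0.315), although its second probe set read -0.029 and GRK2+/- heart 1 lay only just above WT heart 1. Dnajc14, which helps export receptors from the reticulum, read 8.77, 8.96 and 8.92 against 8.78, 8.71 and 8.49 (0.23 ± 0.092, adjusted p = 0.322), with GRK2+/- heart 1 inside the WT range. Dnajc3, or p58IPK, an inhibitor of the stress kinase PERK, read 9.36, 9.49 and 9.36 against 9.36, 9.16 and 9.20 (0.16 ± 0.079, adjusted p = 0.383), and all 5 probe sets were higher. Hspa5, or BiP, the HSP70 of the reticulum, which also holds its stress sensors inactive, read 12.15, 12.30 and 12.13 against 12.14, 12.06 and 11.96. WT heart 1 lay among the GRK2+/- hearts, and the difference of 0.14 ± 0.079 (adjusted p = 0.454) had the same sign in all 3 probe sets.

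Hsp90b1, or GRP94, the HSP90 of the reticulum, read 11.24, 11.21 and 11.20 in GRK2+/- hearts and 11.28, 11.11 and 11.06 in WT hearts (0.065 ± 0.075, adjusted p = 0.723). WT heart 1 was the highest of all, and the sign turned in the mean of its 2 probe sets. Dnajb11, a BiP cofactor, read 9.10, 9.22 and 9.16 against 9.19, 8.94 and 9.08 (0.089 ± 0.080, adjusted p = 0.644). Dnajb9, or ERdj4, a strongly inducible BiP cofactor that restrains IRE1, read 11.24, 11.20 and 11.24 against 11.21, 11.14 and 11.15 (0.059 ± 0.064, adjusted p = 0.706). In both, WT hearts 2 and 3 lay lower than WT heart 1. Dnajc16 (0.11), Hspa13 (0.10) and Dnajc1 (0.065) lay above 0, and Dnajb12 (-0.082), Dnajc10 (-0.025) and Dnajc18 (-0.0098) below. Each heart's median deviation from the WT mean was 0.0322, 0.150 and 0.0777 in GRK2+/- hearts and 0.119, -0.0386 and -0.0341 in WT hearts. WT heart 1 thus lay among the GRK2+/- hearts, and the compartment's median was 0.13 without it, 0.066 without GRK2+/- heart 2 and 0.042 when the mean of each gene's probe sets was used.

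Reticulum chaperone genes are known to be induced through stress response elements, so their promoters are shown here. RefSeq promoters (GRCm38.p6, 250 bases before to 50 after a transcription start) matched 63 of the 76 members by symbol. The endoplasmic reticulum stress response element, searched as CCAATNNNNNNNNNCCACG on both strands, occurred in 3 members, Hspa5, Hsp90b1 and Dnajc3, and in 0.119% of all 32851 promoters. The element is shown in capitals with 30 bases on each side, 5' to 3' on the strand of the gene. It begins 65 bases before the start in Hspa5, 212 in Hsp90b1, which holds a second copy on the opposite strand, and 105 in Dnajc3.
Hspa5, chr2:34771995-34772073, plus strand: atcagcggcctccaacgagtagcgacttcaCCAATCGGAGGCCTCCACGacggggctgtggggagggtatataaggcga
Hsp90b1, chr10:86705608-86705686, minus strand: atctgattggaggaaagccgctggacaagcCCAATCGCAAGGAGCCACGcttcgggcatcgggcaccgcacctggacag
Dnajc3, chr14:118937797-118937875, plus strand: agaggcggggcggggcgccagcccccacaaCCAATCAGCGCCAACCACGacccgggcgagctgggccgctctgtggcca
These 3 genes had differences of 0.14, 0.065 and 0.16. A match is a description of the letters and not a site of binding.

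Herpud1, a reticulum membrane protein of the machinery that sends misfolded proteins to the proteasome, had the lowest difference of the set. It read 12.05, 11.65 and 11.66 in GRK2+/- hearts and 12.36, 12.22 and 12.53 in WT hearts. Every GRK2+/- heart lay below every WT heart, with GRK2+/- heart 1 nearest to them. The difference was -0.58 ± 0.12 (SE, n = 3 per group, adjusted p = 0.118), rank 97 by p and rank 74 by size among the 18193 genes. Its second probe set read -0.63. Without GRK2+/- heart 1 the difference was -0.72 and passed the threshold (adjusted p = 0.0335), and over the other alternatives it ranged from -0.66 to -0.51 with adjusted p from 0.0800 to 0.413.

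The Herpud1 promoter carries a different class of stress element from that of the BiP group. The second type of endoplasmic reticulum stress response element, searched as ATTGGNCCACG, occurred in 0.0365% of all promoters and begins 52 bases before the Herpud1 start. A composite C/EBP-ATF element, searched as TTGCATCA and present in 0.895% of promoters, begins 112 bases before it. Both are shown in capitals as above, the first element first.
Herpud1, chr8:94386347-94386417, plus strand: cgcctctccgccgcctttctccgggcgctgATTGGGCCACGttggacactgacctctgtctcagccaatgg
Herpud1, chr8:94386287-94386354, plus strand: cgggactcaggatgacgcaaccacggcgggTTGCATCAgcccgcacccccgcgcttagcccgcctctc
The only other member with the second-type element was Dnajb11, where it lies after the start (0.089). The unfolded protein response element TGACGTGG occurred in Dnajc25 (0.676% of promoters), and the cyclic AMP response element TGACGTCA in Dnajc27 (1.79%). The element TGATGNAAT (0.965%) occurred in no member.

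The transcription factors of the response lay close to 0. Xbp1, the target of IRE1, read 11.45, 11.34 and 11.40 in GRK2+/- hearts and 11.38, 11.31 and 11.24 in WT hearts, a difference of 0.088 ± 0.070 (adjusted p = 0.596) with overlap. Its splicing was not measured. Atf4, the effector of the PERK branch, read 10.49, 10.38 and 10.55 against 10.59, 10.41 and 10.51 (-0.031 ± 0.078, adjusted p = 0.892), and its other 2 probe sets gave 0.31 and -0.17. Ddit3, or CHOP, a later factor that favours cell death, read 8.81, 9.15 and 9.17 against 9.09, 8.94 and 9.05 (0.014 ± 0.10, adjusted p = 0.962), and its sign turned under quantile normalisation (-0.0075). The Herpud1 difference was thus not accompanied by one of the same size in Xbp1, Atf4 or Ddit3.

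By the brightest probe set of each gene, Dnajc11 was the mitochondrial member farthest from 0, while Hspa9 and Dnaja3 each had a further probe set that was lower in GRK2+/- hearts without overlap. Hspd1 and Hspe1, which encode the HSP60 and HSP10 folding chamber, overlapped between the groups. Hspd1 read 12.55, 12.55 and 12.56 in GRK2+/- hearts and 12.60, 12.48 and 12.40 in WT hearts. Hspe1 read 12.13, 12.33 and 12.34 against 12.21, 12.25 and 12.18. Their differences were 0.055 ± 0.073 and 0.051 ± 0.077 (adjusted p = 0.764 and 0.794). Hspa9, or mortalin, the HSP70 of the matrix and of import, read 11.69, 11.67 and 11.67 against 11.69, 11.66 and 11.55 (0.041 ± 0.069, adjusted p = 0.821), while its other probe sets ranged from -0.35 to 0.14, both ends without overlap. Dnaja3, the matrix J protein, read 10.94, 11.06 and 10.97 against 11.01, 10.99 and 11.06 (-0.034 ± 0.068, adjusted p = 0.854). Of its other 2 probe sets, 1 read -0.23 without overlap between the groups and the dimmer one -0.12. Dnajc11 is a partner of the complex that shapes the inner membrane folds and read 9.08, 9.06 and 9.08 against 9.21, 9.22 and 9.26. The GRK2+/- hearts were almost equal and lay below every WT heart (-0.16 ± 0.063, 1.12-fold lower, adjusted p = 0.318), and all 4 probe sets were lower. Dnajc30 (-0.060) and Dnajc15 (-0.019) overlapped.

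Hspd1 and Hspe1 are transcribed in opposite directions from 1 shared region that holds a heat shock element. The element, 3 alternating units searched as GAANNTTCNNGAA on both strands, occurred in 4 members, Hspd1, Hspe1, Dnajb6 and Hsph1, and in 0.603% of all promoters. It begins 84 bases before the Hspe1 start, in the same stretch that lies before the Hspd1 start and overlapping a second match on the other strand, and 46 bases before the nearer start of Dnajb6. In Hsph1 it lies after the start. The stretches of Hspe1 and Dnajb6 are shown in the same form.
Hspe1, chr1:55088034-55088106, plus strand: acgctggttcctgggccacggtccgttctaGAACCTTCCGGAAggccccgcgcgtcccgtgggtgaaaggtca
Dnajb6, chr5:29735822-29735894, plus strand: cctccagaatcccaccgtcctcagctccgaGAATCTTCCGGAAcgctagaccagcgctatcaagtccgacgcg
The 4 genes did not share a direction, at 0.055 for Hspd1, 0.051 for Hspe1, 0.064 for Hsph1 and -0.14 for Dnajb6. A promoter window was not used here for 13 members, among them Hspa8, Hsp90aa1 and Dnajc11.

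Among the J proteins of vesicles and endosomes, Dnajc5 and Dnajc6 did not overlap and lay on opposite sides. Dnajc5, the cysteine string protein of secretory vesicles, read 10.10, 10.07 and 10.10 in GRK2+/- hearts and 10.00, 9.98 and 9.95 in WT hearts (0.12 ± 0.063, adjusted p = 0.431), and its most variable probe set read -0.12. Dnajc6, or auxilin, which uncoats clathrin vesicles, read 5.56, 5.68 and 5.69 against 5.72, 5.89 and 5.92 (-0.20 ± 0.078, adjusted p = 0.312). Its level lay at the 24.7th percentile of the gene table, where little signal stands over background. Dnajc5g (-0.067), Dnajc5b (0.045) and Dnajc13 (0.043) overlapped. The 8 genes placed in no compartment ranged from -0.17 to 0.090 without a count at an unadjusted p under 0.05, and were Dnajb13, Hspbap1, Dnajc4, Dnajc25 and Hspb11 below 0 and Dnajc28, Dnajc22 and Dnajc27 above. The second probe set of Dnajc28 read -0.28 without overlap. In all, 64 members lay at or above the median level of the gene table and 12 below, with no filter on dim genes.

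Genes that work with the chaperones were read from 5 further lists, none with a gene past the threshold in the values reported here. Shares of all genes for comparison are those above, 6.30% higher and 7.70% lower at an unadjusted p under 0.05 and 43.5% above 0. Of 27 measured heat shock factors and co-chaperones of HSP70 and HSP90, 21 lay below 0 and 22.2% above it (median -0.058), with 5 (18.5%) lower and 1 (3.7%) higher at an unadjusted p under 0.05. The lowest was Fkbp5, a co-chaperone of HSP90 in steroid receptor complexes and itself a glucocorticoid target, at 8.55, 8.13 and 7.74 in GRK2+/- hearts and 9.60, 9.18 and 9.82 in WT hearts. The groups were far apart (-1.39 ± 0.20, adjusted p = 0.0762), and it passed the threshold without GRK2+/- heart 1 (-1.60, adjusted p = 0.0155), with the most variable probe set per gene (adjusted p = 0.0395) and with array weights (adjusted p = 0.0469). The other counted genes were Hsf4 (-0.20), Hikeshi (-0.21), Bag2 (-0.20) and Stip1 (-0.19), which links HSP70 to HSP90, and Unc45b (0.17), a myosin chaperone. Bag3 (-0.024) and the small heat shock protein Cryab (-0.028), the alphaB-crystallin of muscle, lay close to 0.

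Of 29 genes of the unfolded protein response and of folding in the reticulum, 21 (72.4%) lay above 0 (median 0.027). The median was 0.0025 with probe sets averaged per gene and turned sign, to -0.028, with the most variable probe set. At an unadjusted p under 0.05, 3 genes were higher and 1 lower, together 13.8% beside 14.0% of all genes. Derl1, a channel component of reticulum-associated degradation, read 10.12, 10.19 and 10.24 in GRK2+/- hearts and 9.87, 9.89 and 9.81 in WT hearts without overlap (0.32 ± 0.068, adjusted p = 0.133). Ern1, the stress sensor IRE1, read 8.60, 8.65 and 8.83 against 8.33, 8.39 and 8.27 (0.36 ± 0.080, adjusted p = 0.141), also without overlap. The others were Mbtps1 (0.21), the protease that activates ATF6, and Derl3 (-0.25). Of 21 genes around ATF4, mostly its targets but also the upstream kinases Eif2ak1 and Eif2ak4, 13 lay below 0 (median -0.031). At an unadjusted p under 0.05, 4 (19.0%) were lower, namely Cebpb (-0.65), Ddit4 (-1.31), Trib3 (-0.21) and Chac1 (-0.57). Higher were 2 (9.52%), Atf3 (0.58) and Ppp1r15a (0.25). The groups did not overlap for Cebpb and Trib3, but overlapped for Ddit4, Chac1, Atf3 and Ppp1r15a. Ddit4 read 10.998, 8.865 and 9.872 in GRK2+/- hearts against 11.185, 10.959 and 11.527. Without GRK2+/- heart 1, Cebpb (-0.79, adjusted p = 0.0443) and Ddit4 (-1.85, adjusted p = 0.0359) passed the threshold. The cytosolic folding chamber TRiC with prefoldin (13 genes, median 0.035) and 14 mitochondrial folding genes and proteases (median -0.062) each had 1 gene counted in either direction, 15.4% and 14.3% of their genes, Cct2 (0.20) and Pfdn2 (-0.16), and Clpx (0.23) and Hscb (-0.24). The TRiC median turned sign with probe sets averaged (-0.0068), without GRK2+/- heart 3 (-0.0021) and without WT heart 2 (-0.011), and the mitochondrial one was -0.0035 with probe sets averaged. These single genes were named after their values were seen.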

How the data were processed

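Total RNA of 6 hearts, 3 GRK2+/- and 3 WT, was hybridised to Affymetrix arrays, 1 per heart. The authors' deposited values are log2 expression values; RMA and limma are named per the submitters' processing notes, with no version given in the sources used here. RMA values are relative brightness after background correction, normalisation and summarising of probes, so they compress small and very bright signals, and levels of different genes were not set against each other. Of 45101 probe sets, 64 controls were left out. Of the 45037 others, 34945 carried 1 gene symbol in the platform annotation, 34741 of them updated through a RefSeq gene table (GRCm38.p6), and the brightest probe set per gene gave 18193 genes.

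Differences are GRK2+/- minus WT from a two-sided test with lmFit and eBayes in limma 3.58.1 under R 4.3.3, over all 6 hearts and without covariates, with Benjamini-Hochberg adjustment over the 18193 genes and errors as limma's standard errors. The steps were tested on simulated data. The p-values set each difference against a spread between hearts that limma moderates over all genes, and precision is limited by the number of arrays. Members, compartments, pathway lists and markers were chosen with earlier results of these data known. Named genes were 26 core chaperones and stress regulators, of which Hsp90ab1 was not analysed here, and, in each compartment, the 3 members with the smallest p whose groups did not overlap. Other members were named to account for the whole set. Hearts with the same replicate number did not deviate together more than other pairs of hearts, so the main fit did not pair them. With 3 hearts a group this check cannot tell whether the numbers mark litters or batches. Normalisation, probe set, dim-gene filter, prior, array weights, replicate block and left-out hearts were varied.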

Additional observations from a re-analysis of the deposited data

How the results depend on the processing

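Of the 76 members, 37 kept the sign of their difference under every alternative that held them and 39 did not. There were 15 alternatives, but the dim-gene filters left only 13 or 14 for the dimmest members. The count past the adjusted threshold stayed 0 with all 6 hearts and was 0 to 1 with 1 heart left out, the 1 being Herpud1 without GRK2+/- heart 1. Higher members at an unadjusted p under 0.05, 3 as reported, numbered 5 with each array centred, with the most variable probe set and with a trended robust prior, 1 with probe sets averaged per gene, and 0 to 6 with a heart left out. Lower members, 8 as reported, numbered 6 to 12. Higher members without overlap, 2 as reported, numbered 4 with centring or quantile normalisation, 1 with the most variable probe set and 3 to 18 with a heart left out, when fewer hearts make overlap rarer, and lower ones 13 to 16 in place of 10. Centring moved the share of higher among all genes counted from 45.0% to 63.5%. The median of the small heat shock proteins was -0.0784 with centring, -0.178 with the most variable probe set and -0.149 to -0.0401 with a heart left out, and that of the cytosolic J proteins -0.0877 to -0.0157.

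The median of the unfolded protein response list was -0.0282 with the most variable probe set. Single genes that turned sign did so, with the mean of their probe sets, at -0.0590 (Hsph1), -0.0112 (Hsp90b1), -0.0117 (Hspa9) and 0.0337 (Atf4). With the most variable probe set they read 0.186 (Hspa1b), -0.182 (Hsph1), 0.0825 (Dnajb6), -0.351 (Hspa9), -0.0986 (Xbp1), 0.306 (Atf4), -0.120 (Dnajc5) and -0.0354 (Mbtps1). Dnajb1 read 0.0228 with centring and 0.0226 with array weights, and Ddit3 -0.00753 with quantile normalisation. With a heart left out the ranges were -0.263 to 0.119 for Hspa1a, -0.000445 to 0.103 for Hsph1, -0.126 to 0.0408 for Hspb8, -0.138 to 0.161 for Dnajb1, -0.00179 to 0.0707 for Hspa9, -0.0498 to 0.133 for Ddit3 and -0.0789 to 0.0173 for Atf4. Fkbp5 passed the adjusted threshold with the most variable probe set, with array weights and without GRK2+/- heart 1, and Ddit4 and Cebpb without that heart. The cause was not tested. Same-numbered hearts had correlated deviations of -0.183, -0.0051 and 0.0159, and with the replicate block 0 members passed the adjusted threshold, 3 were higher and 7 lower at an unadjusted p under 0.05. For dim probe sets, background limits what a difference can show.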
